A study of Mus musculus with 2 samples.

Results

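The miR-17~92 cluster and its paralog miR-106b~25 were followed in small RNA libraries of whole mouse brain. The set held 9 members, chosen by name: mmu-miR-17, mmu-miR-18a, mmu-miR-19a, mmu-miR-20a, mmu-miR-19b and mmu-miR-92a of miR-17~92, and mmu-miR-106b, mmu-miR-93 and mmu-miR-25 of miR-106b~25. Of these, 7 were among the 405 known miRNAs without a star that the study listed, and their tags (distinct read sequences) were found through the raw counts listed for them. mmu-miR-18a and mmu-miR-19a were not in that list and were looked up by their mature sequence. Each member was counted as all tags that shared the first 18 nucleotides of its mature sequence, its start group. In all, 8 of the 9 members had reads, 2771 in the young library and 2997 in the old one, which was 0.0869% and 0.0612% of all reads of known miRNAs.

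The study asked how small RNAs of the brain differ between young and old mice. Both groups were adult male C57BL/6J mice, an inbred strain, with no genetic change or treatment named. The young mice were aged 5 months and the old mice 24 to 25 months, and the DNA libraries of 2 mice were combined at each age. There was therefore 1 library per age, with 4523267 reads (young) and 6658732 reads (old), and no error between mice could be had. All intervals below are 95% intervals that cover the counting of reads only, and since reads are PCR products they are not independent molecules. A test here sets 1 library against the other, not 1 age against the other, and in whole tissue fewer cells of a type and less of a miRNA per cell cannot be told apart.

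A miRNA cluster is transcribed as a single precursor RNA, cut into hairpins, and each hairpin yields a strand that is loaded into Argonaute (the guide) and a strand that is usually degraded (the passenger, marked with a star). A loaded miRNA finds its target mRNAs mainly through its seed, the bases after the first at its 5′ end. The miR-17~92 cluster, first known as an oncogenic cluster, is induced by Myc and promotes cell division and survival, and in the developing cortex it keeps neural progenitors dividing. The miR-106b~25 cluster lies in the gene of Mcm7, a part of the helicase that copies DNA, and acts on proliferation of adult neural progenitors.

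The members fell into 4 seed groups, and their mature sequences (RefSeq, GRCm38.p6) are shown because the seed groups cut across the 2 clusters. Capitals mark the seed, bases 2 to 8.
mmu-miR-17: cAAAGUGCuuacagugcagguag
mmu-miR-20a: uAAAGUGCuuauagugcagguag
mmu-miR-106b: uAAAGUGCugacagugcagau
mmu-miR-93: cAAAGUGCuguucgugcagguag
mmu-miR-18a: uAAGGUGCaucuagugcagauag
mmu-miR-19a: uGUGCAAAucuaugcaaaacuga
mmu-miR-19b: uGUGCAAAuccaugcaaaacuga
mmu-miR-92a: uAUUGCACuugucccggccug
mmu-miR-25: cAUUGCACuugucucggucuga

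The first 4 shared the seed AAAGUGC, and mmu-miR-18a carried the seed AAGGUGC, a single base apart. The miR-19 pair had GUGCAAA, and mmu-miR-92a and mmu-miR-25 had AUUGCAC. Within the AAAGUGC group, mmu-miR-17 and mmu-miR-20a differed at 2 of 23 positions (C1U and C12U, counted from the 5′ end, base of mmu-miR-17 first). mmu-miR-19a and mmu-miR-19b differed only by U11C. mmu-miR-92a and mmu-miR-25 differed at 3 of the 21 positions compared (U1C, C14U and C18U). Every pair of members compared here differed within the first 18 nucleotides, so that an exact match to these bases kept them apart.

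In NCBIM37 (mm9), the 6 mature sequences of miR-17~92 lay within 813 bases on the plus strand, chr14:115442906-115443718, inside an exon of the noncoding host gene Mir17hg. mmu-miR-19b and mmu-miR-92a had a second identical copy, on the minus strand of the X chromosome at chrX:50095168-50095190 and chrX:50095031-50095051, where the third paralog cluster lies. Reads of these mature sequences could not be assigned to either copy. The 3 members of miR-106b~25 lay within 476 bases on the minus strand, chr5:138606560-138607035. There mmu-miR-106b was in an intron of Mcm7, and mmu-miR-93 and mmu-miR-25 were in a stretch that the annotation gives as an exon of a retained-intron transcript of Mcm7.

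The miR-106b~25 cluster held most of the reads of the members, 93% in the young library and 91.7% in the old one. Its summed reads were 13.4 times those of miR-17~92 in the young library (interval 11.5 to 15.5) and 11.0 times in the old one (9.69 to 12.6). mmu-miR-25, whose targets include the proapoptotic Bcl2l11, was the most abundant member in both libraries, at 341 RPM (reads per 1000000 reads of the library, interval 324 to 359) in young and 199 (188 to 210) in old. It ranked 81 by mean level among the 267 known miRNAs that had at least 10 reads in a library. mmu-miR-93 followed, with 132 RPM (121 to 143) in young and 116 (108 to 125) in old. mmu-miR-106b, which like mmu-miR-93 represses the cell cycle inhibitor Cdkn1a, had 97.1 (88.2 to 107) and 97.8 (90.4 to 105.6) RPM. The intervals of these 3 members did not overlap each other within a library.

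**Figure D1:**
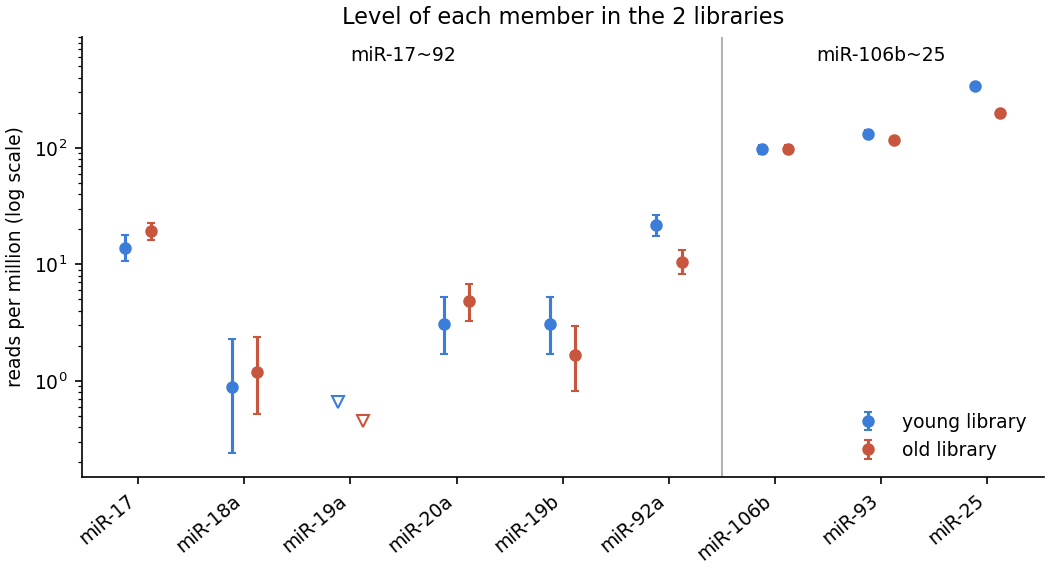
Level of each member in RPM (vertical axis, log scale) in the young and the old library, with exact Poisson 95% intervals that cover counting only. Open triangles mark the level of 3 reads for mmu-miR-19a, which had 0 reads. The 3 members of miR-106b~25 lay between 97.1 and 341 RPM and those of miR-17~92 at 21.7 or less.

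The members of miR-17~92 were low in these brains. mmu-miR-92a, which is known from endothelium and blood cells, had 98 reads in young and 70 in old, or 21.7 RPM (17.6 to 26.4) and 10.5 (8.20 to 13.3). mmu-miR-17, which represses E2f1 and Cdkn1a, had 63 and 128 reads, or 13.9 (10.7 to 17.8) and 19.2 (16 to 22.9) RPM. Their order thus turned around between the libraries. mmu-miR-17 had 0.643 times the reads of mmu-miR-92a in young (interval 0.461 to 0.891) and 1.83 times in old (1.36 to 2.48), a ratio that no scaling of the libraries changes.

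mmu-miR-20a, the closest member to mmu-miR-17 in sequence, had 14 young and 32 old reads (3.10 and 4.81 RPM). mmu-miR-19b had 14 and 11 reads (3.10 and 1.65 RPM). The intervals of these 2 members overlapped in young (1.69 to 5.19 for both) and did not overlap in old (3.29 to 6.78 and 0.825 to 2.96). mmu-miR-18a had 4 and 8 reads (0.884 and 1.2 RPM). mmu-miR-19a had 0 reads in both libraries, and its interval reached up to 0.816 RPM in young and 0.554 in old. A count of 3 reads would be 0.663 RPM in young and 0.451 in old. All other members of the cluster were detected.

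Ratios of old over young were scaled by the total reads, as in the study. Over the 267 known miRNAs the median log2 ratio was -0.72, and 81.6% were lower in the old library. The let-7 starts took 34.1% of reads in young and 49.0% in old, and with the depth counted without them the median was -0.35. Factors over the known miRNAs (edgeR's TMM or DESeq2's size factors) raised every log2 ratio by 0.74 or 0.71, and the depth without let-7 by 0.37. Each member's ratio on all tags is therefore also given against the median of the known miRNAs, which these factors do not alter.

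On total reads the members were less shifted than that background. Of the 8 with reads, 4 were lower and 4 higher in old on total reads, and their median log2 ratio was -0.08. With TMM or DESeq2 factors this median was 0.66 or 0.63, beside 0.022 or -0.0087 for the known miRNAs, so that the members were then the more shifted. None was at least 2-fold higher in old, beside 1.87% of the known miRNAs, and 1 was at least 2-fold lower, beside 31.1%. With TMM or DESeq2 factors 3 members (mmu-miR-17, mmu-miR-18a and mmu-miR-20a) were at least 2-fold higher and 0 lower. Of the 267 known miRNAs, 35 (TMM) or 33 (DESeq2) were at least 2-fold higher with these factors, and 15 were lower with either. mmu-miR-18a, with 4 young and 8 old reads, was under the minimum of 10 reads in a library set for the known miRNAs. In the random sampling model of DEGseq, the test of the study, 4 of the 8 had a p under 0.05, beside 78.3% of the known miRNAs, whose median depth was 713 reads in all. With an assumed coefficient of variation between such combined libraries of 0.2 or 0.4, fewer members passed edgeR's exact test than passed that model. The known miRNAs were not counted at these settings. Relative to the median of the known miRNAs, 5 members lay above it and 3 below it.

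The 4 members of the seed AAAGUGC lay above the median of the known miRNAs and near or above 0. mmu-miR-17 had a log2 ratio of 0.46 (interval 0.02 to 0.92, exact binomial p = 0.0388), which was 1.18 above the median. It did not pass the random sampling model at 0.05 with the depth set by reads of known miRNAs (0.40) or with perfect genome matches only (0.40), and with TMM factors it was 1.21 and passed. mmu-miR-20a had 0.63 (-0.31 to 1.66), 1.35 above it. mmu-miR-106b had 0.01 (-0.17 to 0.19), 0.73 above it, and its sign turned under several settings. mmu-miR-93 had -0.18 (-0.33 to -0.02, exact binomial p = 0.0258), 0.54 above the median, and was higher in old once TMM, DESeq2 or let-7-free factors were used.

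The 2 members of the seed AUUGCAC lay below it. mmu-miR-92a had a log2 ratio of -1.04 (-1.51 to -0.59), a level 2.06-fold lower in old and the only member past 2-fold on all tags, but only 0.32 below the median. mmu-miR-25 had -0.78 (-0.89 to -0.67), 0.06 below the median. With TMM factors these were -0.30 and -0.04, and neither passed the random sampling model at 0.05. mmu-miR-19b had -0.91 (-2.19 to 0.34), 0.19 below the median, and mmu-miR-18a had 0.44 (-1.46 to 2.62), 1.16 above it. At 25 and 12 reads in all neither difference passed on total reads, but that of mmu-miR-19b passed the random sampling model at 0.05 with the GC correction or with undetermined bases allowed.

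**Figure D2:**
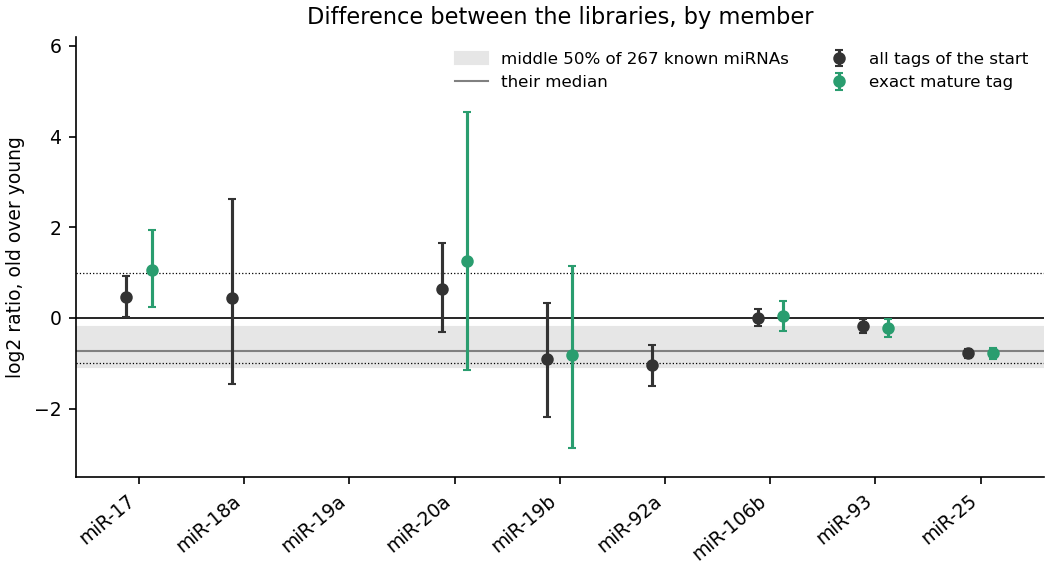
Log2 ratio of old over young for each member (vertical axis) with exact binomial 95% intervals, on all tags of the start and on the exact mature tag alone, scaled by total reads. The grey band and line give the middle 50% and the median of the 267 known miRNAs, and the dotted lines mark 2-fold. mmu-miR-17 rises from 0.46 to 1.06 when only the exact tag is counted, and no ratio is drawn where both libraries had 3 reads or fewer.

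Summed by seed, a grouping chosen after the values were seen and given with no test, the AAAGUGC members had 1111 young and 1586 old reads, a log2 ratio of -0.04 (-0.16 to 0.07). The AUUGCAC members had 1642 and 1392 reads, a log2 ratio of -0.80 (-0.90 to -0.69). Each cluster held both seeds. By cluster, the 6 members of miR-17~92 summed to 193 and 249 reads, with a log2 ratio of -0.19 (-0.47 to 0.09), and the 3 members of miR-106b~25 to 2578 and 2748 reads, with -0.47 (-0.54 to -0.39). With TMM or DESeq2 factors the sum of miR-17~92 was at 0.55 or 0.52 and that of miR-106b~25 at 0.28 or 0.24. The sum of miR-17~92 was also above 0 with the depth without let-7 (0.18). On the exact tags it was 0.80, but only mmu-miR-17, mmu-miR-20a and mmu-miR-19b entered that sum. The exact tag of mmu-miR-92a, with 3 reads in each library, was left out, as were mmu-miR-18a and mmu-miR-19a at 0.

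Base composition differed among the members, and the AAAGUGC and AUUGCAC groups overlapped in it. Over the known miRNAs the log2 ratio fell by 0.37 for each 10 percentage points of GC, and the AAAGUGC members held 39.1% to 52.2% GC, beside 50% in mmu-miR-25 and 57.1% in mmu-miR-92a. With a linear correction for GC content the log2 ratios were 0.44 for mmu-miR-17, 0.29 for mmu-miR-20a, 0.25 for mmu-miR-18a, -0.04 for mmu-miR-93, -0.20 for mmu-miR-106b, -0.73 for mmu-miR-25, -0.73 for mmu-miR-92a and -1.25 for mmu-miR-19b. The member at least 2-fold lower was then mmu-miR-19b, on 14 and 11 reads, and not mmu-miR-92a. With this correction 73 of the 267 known miRNAs were at least 2-fold lower and 3 higher. The part of base composition in the remaining spread was not tested.

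Relatives that carry a member seed but lie outside both clusters were compared as a fixed list of 7. In the third paralog cluster on the X chromosome, mmu-miR-106a had 2 young and 1 old reads, mmu-miR-20b had 1 and 1, mmu-miR-18b had 0 and 0, and mmu-miR-363 had 6 and 3. That cluster was thus close to the floor in both libraries. The 4 AAAGUGC members held 99.7% (young) and 99.9% (old) of what was read from all miRNAs found with that seed.

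The seed AUUGCAC was shared with a more abundant relative. mmu-miR-92b had 1296 young and 840 old reads, 13.2 and 12 times those of mmu-miR-92a, from which it differed at 2 of the 21 positions compared. Its log2 ratio was -1.18 (-1.31 to -1.06), at a GC content of 63.6%. mmu-miR-32 had 14 and 13 reads, with a log2 ratio of -0.66 (-1.87 to 0.53) at 31.8% GC, and mmu-miR-367 had none. mmu-miR-25 and mmu-miR-92a together held 55.5% of the reads with this seed in young and 61.9% in old.

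The balance of the 2 strands of a hairpin is a ratio within each library that scaling does not touch. The hairpin of mmu-miR-17 gave more reads of its star strand than of the member. mmu-miR-17* had 326 young and 324 old reads, 5.17 times mmu-miR-17 in young (3.94 to 6.89) and 2.53 times in old (2.06 to 3.13). The member strand thus held 16.2% of the hairpin's reads in young (Wilson interval 12.9 to 20.2) and 28.3% in old (24.4 to 32.6). The libraries differed in this share (Fisher's exact test, two-sided, adjusted p = 0.000136 over 8 hairpins).

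The hairpin of mmu-miR-106b shifted the same way. Its member strand held 69.9% of the reads in young (66.2 to 73.4, 439 of the member and 189 of the star) and 84.0% in old (81.3 to 86.4, 651 and 124), with an adjusted p of 2.62e-09 in the same exact test. In mmu-miR-25 the share was 95.8% (94.7 to 96.7) and 94.8% (93.5 to 95.8), and the difference did not pass (adjusted exact p = 0.521). The odds of the member strand changed from young to old by 1.03 on the log2 scale in mmu-miR-17 (0.53 to 1.55), by 1.18 in mmu-miR-106b (0.79 to 1.56) and by -0.33 in mmu-miR-25 (-0.84 to 0.18). Here too GC content differed between the strands, at 54.5% in mmu-miR-17* against 47.8% in the member, 63.6% in mmu-miR-106b* against 42.9%, and 59.1% in mmu-miR-25* against 50%, and its part was not tested.

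The other hairpins whose members had reads gave nearly only the member strand. The star strand of mmu-miR-19a was not looked up. mmu-miR-92a-1* had 3 and 4 reads, mmu-miR-20a* had 0 and 2, and mmu-miR-93* had 1 and 0, beside 595 and 775 reads of mmu-miR-93. mmu-miR-18a*, mmu-miR-19b-1*, mmu-miR-19b-2* and mmu-miR-92a-2* had 0 reads in both. Neither star strand that only the X chromosome cluster can make (of the second copies of mmu-miR-19b and mmu-miR-92a) was therefore seen. The 3 star strands with most reads are shown because they exceeded several members.
mmu-miR-17*: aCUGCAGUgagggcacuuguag
mmu-miR-106b*: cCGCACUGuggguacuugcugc
mmu-miR-25*: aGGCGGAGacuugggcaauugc
Capitals again mark bases 2 to 8, and none of these 3 seeds was a member seed.

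**Figure D3:**
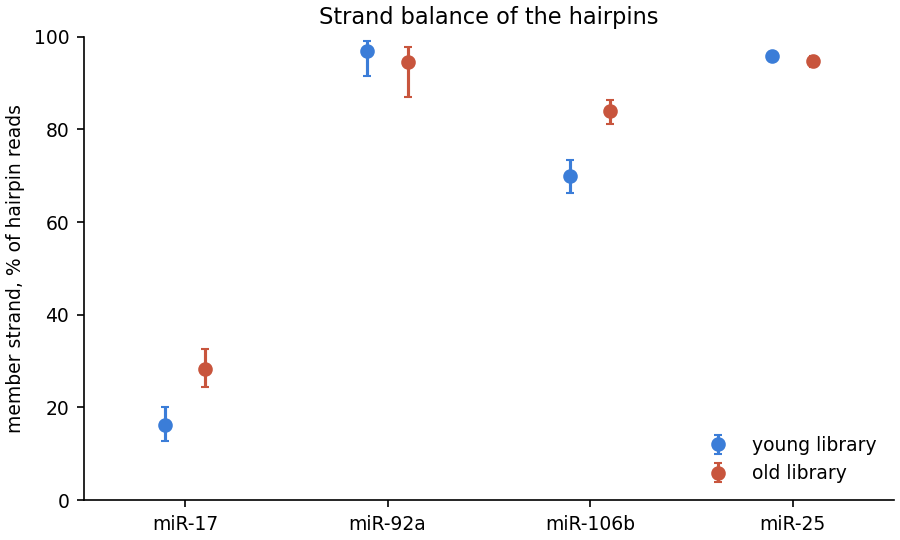
Share of the member strand in all reads of its hairpin (vertical axis, percent) in the young and the old library, with Wilson 95% intervals, for the 4 members whose star strands had at least 5 reads in all. The share rises from 16.2% to 28.3% in mmu-miR-17 and from 69.9% to 84.0% in mmu-miR-106b, and the intervals of mmu-miR-92a and mmu-miR-25 overlap between libraries.

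**Figure D4:**
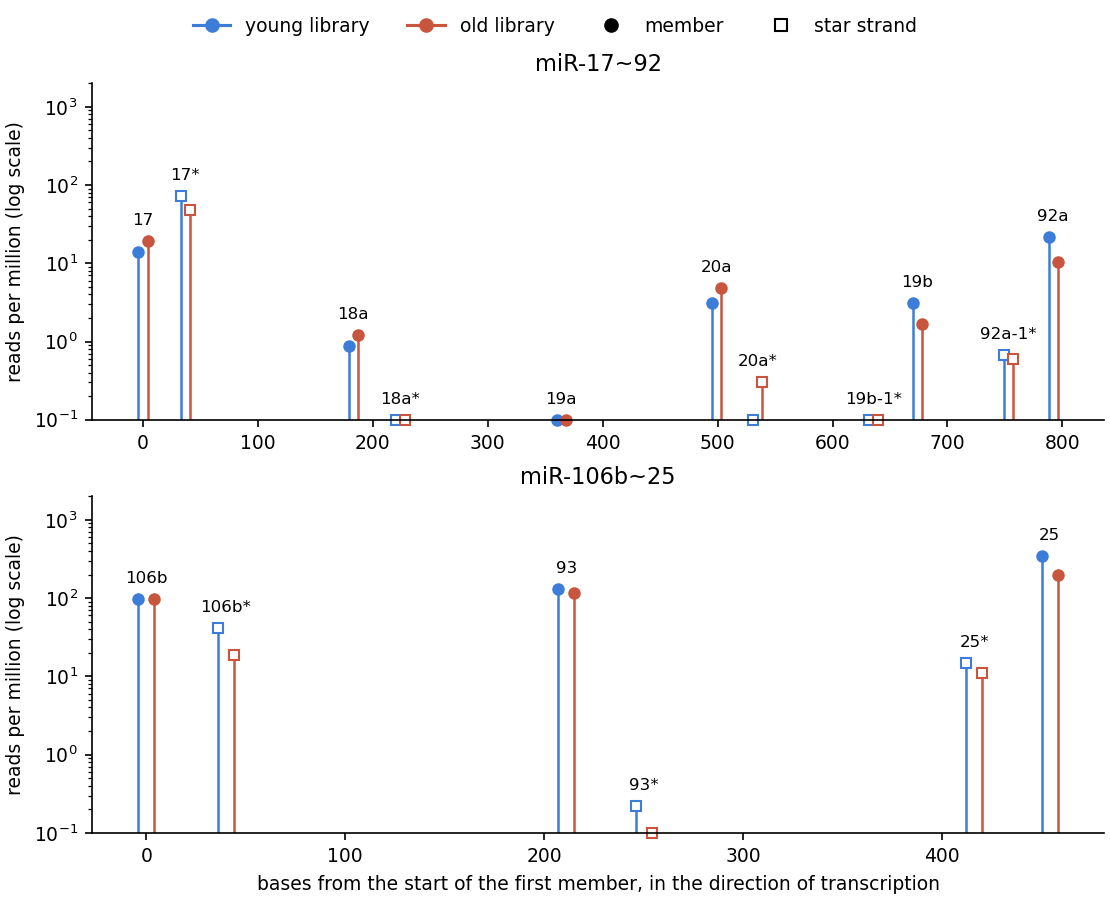
RPM (vertical axis, log scale) of member strands (filled circles) and star strands (open squares) along each cluster, against the distance in bases from the start of its first member, with symbols on the lower edge for 0 reads. Levels along miR-17~92 run from 0 at mmu-miR-19a to 72.1 young RPM at mmu-miR-17*, while all 3 members of miR-106b~25 lie at 97.1 or more in both libraries.

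Start groups were made of several forms that differed at the 3′ end, and the form decides what an exact count sees. The exact mature tag made up 72.9% of mmu-miR-25 in both libraries and 62.7% and 60.4% of mmu-miR-93. It made up 29.4% and 30.0% of mmu-miR-106b, whose most frequent tag was 1 base longer, and 27.0% and 40.6% of mmu-miR-17. In mmu-miR-92a it was 3 of 98 young and 3 of 70 old reads (3.06% and 4.29%). For mmu-miR-92a and mmu-miR-106b, the most frequent tags that ran past the mature end are shown, with bases past the mature end in capitals.
mmu-miR-92a, 62 young and 43 old reads: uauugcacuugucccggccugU
mmu-miR-92a, 18 young and 8 old reads: uauugcacuugucccggccugUA
mmu-miR-106b, 156 young and 207 old reads: uaaagugcugacagugcagauA
mmu-miR-106b, 52 young and 91 old reads: uaaagugcugacagugcagauAA

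The first tag of each pair matched the genome in full and the second did not. No member of the 8 passed the test of its exact-tag share between libraries after adjustment (Fisher's exact test, two-sided). The nearest was mmu-miR-17 (exact p = 0.0784, adjusted 0.627), with Wilson intervals of 17.6% to 39.0% and 32.5% to 49.3%. Counted by the exact tag alone, mmu-miR-17 had 17 reads in young and 52 in old, for a log2 ratio of 1.06 (0.24 to 1.94), which is past 2-fold, beside 1.86% of the 215 known miRNAs counted that way. All other tags of its start together had 46 and 76 reads, a log2 ratio of 0.17 (-0.38 to 0.72), so that on total reads the 2-fold call of mmu-miR-17 rested on the form counted. With TMM or DESeq2 factors all its tags together were past 2-fold (1.21 or 1.18). By qRT-PCR, normalized to U6 snRNA, the study could not find a large change of miR-17 with age. It held that sequencing and qPCR are not always comparable, since they recognise sequence ends differently. mmu-miR-20a had 2 and 7 reads of its exact tag, too few to set a ratio (interval -1.14 to 4.55).

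**Figure D5:**
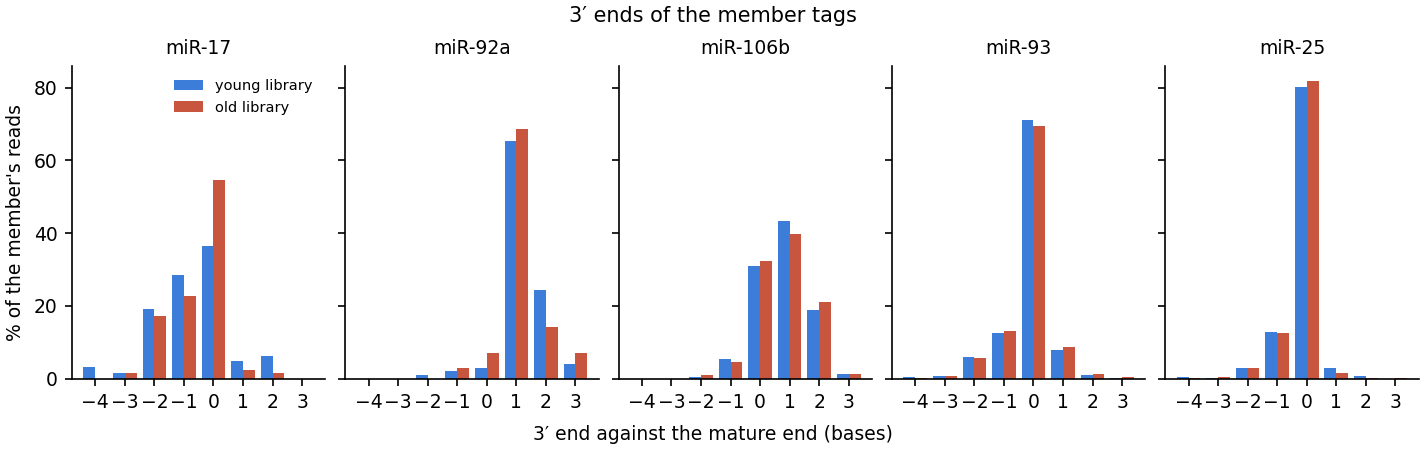
Position of the 3′ end of each read against the mature end (horizontal axis, bases) as a percentage of the member's reads (vertical axis) in the young and the old library, for the 5 members with at least 50 young reads. mmu-miR-25 and mmu-miR-93 end mainly at the mature end, mmu-miR-92a 1 base after it, and mmu-miR-17 has 36.5% (young) and 54.7% (old) of its reads at the mature end.

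The 3′ part of many tags departed from the genome. In mmu-miR-106b such tags were 27.4% of the reads in young and 32.3% in old, in mmu-miR-92a 26.5% and 28.6%, in mmu-miR-17 20.6% and 24.2%, in mmu-miR-93 18.9% and 19.4%, and in mmu-miR-25 11.2% and 12.1%. An added A was the most frequent in mmu-miR-106b (13.4% and 16.4%) and an added U in mmu-miR-25 (5.74% and 6.58%). Within single members the smallest of the unadjusted p values between libraries was 0.0923 (Fisher's exact test, mmu-miR-106b). Pooled over the members such tags were 16.2% of reads in young (14.9 to 17.7) and 19.4% in old (18.0 to 20.9), 2 libraries in which mmu-miR-25, the member with the lowest share of the 5 above, held 55.7% and 44.1% of the members' reads. The 5′ end, which sets the seed, was more uniform: tags of the members' hairpins that began up to 4 bases before or after the mature start made up 1.07% of reads in young (0.751 to 1.53) and 1.09% in old (0.777 to 1.53).

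The tissue was checked against fixed marker lists. The 6 brain miRNAs summed to 78891 RPM in young and 41478 in old (log2 ratio -0.93), and 3 red blood cell miRNAs to 606 and 322 (-0.91). Endothelial miR-126 strands summed to 66.3 and 62.3 (-0.09), and choroid plexus miRNAs to 70.1 and 23.6 (-1.57), of which miR-211 was at 0. Muscle miRNAs summed to 7454 and 10867 (0.54), with miR-1 at 0.64 and miR-206 at -0.04. Of the white blood cell list, miR-142-5p had 127 young and 268 old reads, miR-223 had 4 and 5 and miR-142-3p 0, for a sum of 29.0 and 41.0 RPM (0.50). The summed ratios of the muscle and white blood cell lists lay near that of mmu-miR-17, and their part in it was not tested. Most reads of these sums were of miR-1 and miR-142-5p, while miR-206 and miR-223 (-0.24) were below 0. miR-150 and miR-133a of these lists were not analysed here. Undetermined bases were in 4.57% of all reads in young and 1.07% in old. Allowing them in the first 18 bases made mmu-miR-19b 2-fold lower as well (log2 ratio -1.10, 16 and 11 reads). At that setting 92 known miRNAs were at least 2-fold lower, beside 83 on total reads.

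Among the 123 other known miRNAs of at least 1000 reads in all, those whose log2 ratio lay nearest to the members' median were mmu-miR-1839-5p (-0.06, 26886 young and 37976 old reads), mmu-miR-206 (-0.04, 5568 and 7960 reads) and mmu-miR-107 (-0.01, 7216 and 10516 reads). The likeness is that of a single ratio over 2 libraries.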

How the data were processed

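Small RNA reads of 2 whole brain libraries (young and old, 1 each) were analysed. Per the study's methods, the authors excised the fraction of 18 to 30 nucleotides from a gel, ligated adapters, sequenced 36 cycles, cut off the 3′ adapter, mapped the rest to mm9 by SOAP and merged identical sequences. The deposited values were raw read counts per distinct tag, without normalization, so that unmapped reads are not covered here and the ligation, PCR and alignment steps act on every level given.

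From these counts, start groups were formed by an exact match to the first 18 nucleotides, each tag going to the miRNA with the longest shared prefix. Undetermined bases were allowed only after these 18. A member's tag was the one whose counts equal those of the study's list of known miRNAs, or the RefSeq mature sequence where several did. Of the 405 names without a star, 340 gave a tag (336 distinct sequences) and 65 did not. Tags were searched in NCBIM37, the same assembly as mm9, with its GENCODE annotation. Ratios were scaled by total reads (old over young, 1.47), and a count of 0 was set to 0.5. DEGseq's random sampling model for MA plots, computed from its formula, gave two-sided p-values, with exact binomial tests and Clopper-Pearson intervals of the ratio beside it, exact Poisson intervals of levels and Wilson intervals of shares. Shares of reads between libraries were compared by Fisher's exact test with Benjamini-Hochberg adjustment over the 8 members. edgeR's quasi-likelihood test was not used, since no residual degrees of freedom exist with a single library at each age. edgeR and DESeq2 served for scaling factors, and edgeR for an exact test at assumed coefficients of variation.

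Named miRNAs were the 9 members and the star strands of their hairpins, except that of mmu-miR-19a, which was not looked up. Also named were 7 relatives with a member seed or in the third paralog cluster. The 3 other known miRNAs of at least 1000 reads nearest to the members' median were named as well. The members and lists were chosen with earlier results of these data known. Alternatives were other depths (reads of known miRNAs, total without let-7, TMM, DESeq2), the exact mature tag, starts of 16 or 20 nucleotides, perfect genome matches, undetermined bases in the start (up to 3), 1 read added, a linear GC correction, only the listed members, read minimums of 0 or 50 for the known miRNAs, other tests, and the most abundant tag of each strand. The statistics were tested on simulated data. Software comprised Python 3.11.15 (numpy 2.4.6, scipy 1.17.1, matplotlib 3.10.9) and R 4.3.3 (edgeR 4.0.16; DESeq2 1.42.0).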

Additional observations from a re-analysis of the deposited data

How the results depend on the processing

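No paired analysis was possible because each age had 1 library. The scaling changed the direction of the members' median, of both cluster sums, of mmu-miR-93 and of mmu-miR-106b, and the other 6 members kept theirs under all 4 other depths. With TMM factors, DESeq2 factors and depth without let-7, in that order, the members' median log2 ratio was 0.66, 0.63 and 0.29, members at least 2-fold higher numbered 3, 3 and 1 and those at least 2-fold lower 0, 0 and 0, the summed miR-17~92 ratio was 0.55, 0.52 and 0.18 and that of miR-106b~25 0.28, 0.24 and -0.10, and mmu-miR-93 was at 0.56, 0.53 and 0.19. Known miRNAs at least 2-fold higher and lower then numbered 35 and 15, 33 and 15, and 16 and 35, beside 5 and 83 on total reads, and the median of the known miRNAs was 0.022, -0.0087 and -0.35. Members lower in old numbered 3 under each, beside 49.1%, 50.2% and 67.0% of the known miRNAs. On total reads they numbered 4, beside 81.6%. mmu-miR-106b, at 0.01 on total reads, was at -0.052 with reads of known miRNAs, -0.0029 with 20 nucleotides, -0.072 with perfect genome matches, -0.036 with undetermined bases allowed and -0.20 with the GC correction. The exact mature tag gave 2 members at least 2-fold higher (mmu-miR-17, and mmu-miR-20a on 2 and 7 reads) and 0 lower. Of the 215 known miRNAs counted that way, 4 were higher and 65 lower. On the exact tag the summed ratios were 0.80 for miR-17~92, without mmu-miR-92a, mmu-miR-18a and mmu-miR-19a, and -0.56 for miR-106b~25. With undetermined bases allowed, 2 members were at least 2-fold lower, beside 92 of the known miRNAs. Of these members, mmu-miR-19b had only 16 young and 11 old reads. At the assumed coefficients of variation of 0.2 and 0.4 fewer members passed than in the random sampling model, and the known miRNAs were not counted there. Starts of 16 nucleotides and 1 read added changed no direction or call of a member. Of the strand shares, 5 of 12 moved past their interval when only the most abundant tag of each strand was counted, and mmu-miR-17 then had 11.6% in young. Known miRNAs at least 2-fold higher numbered 11 with no read minimum and 3 at 50 reads. At 63 and 128 reads for mmu-miR-17, and fewer for its neighbours except mmu-miR-92a in young, counting alone limits these ratios, and the spread between mice is unknown.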
